A study of Mus musculus with 62 samples.

Results

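The synaptic vesicle fusion genes described here were 8 genes listed by symbol, in a choice made with earlier results of these data known. They were the synapsins *Syn1* and *Syn2*, the SNARE genes *Snap25*, *Stx1a*, *Vamp1* and *Vamp2*, the calcium sensor *Syt1* and the vesicle glycoprotein *Sv2a*. All 8 were among the 11121 genes of the count table, and each had counts in all 62 libraries. Neurotransmitter is released when a synaptic vesicle fuses with the presynaptic membrane. The vesicle protein synaptobrevin (VAMP) zips together with syntaxin-1 and SNAP-25 of the plasma membrane into a SNARE complex, and synaptotagmin-1 couples this step to the entry of calcium. Synapsins hold vesicles in a reserve pool near the release site, and SV2 proteins span the vesicle membrane and are needed for normal release. These transcripts are made by neurons of nearly every kind, but related copies (*Vamp1* and *Vamp2*, for example) are used to different degrees by different neurons.

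The libraries came from wild-type C57BL/6j male mice aged 15 weeks. Mice of the mCRS group had gone through multimodal chronic restraint stress, a series of daily restraint sessions under changing conditions, and CTR mice had not been stressed. The prefrontal cortex (PFC) gave 15 CTR and 15 mCRS libraries, and the nucleus accumbens (NAc), the ventral part of the striatum, gave 16 and 16. Transcripts were counted by BRB-seq, which reads the 3′ ends of RNA from samples that are barcoded and then pooled. All mice had also been through behavioural tests, so the CTR mice were unstressed but not untested.

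Library totals ran from 945286 to 4857359 counts, and the members together made up, leaving out mtDNA counts, a median of 0.823% of a PFC library and 0.548% of a NAc library in CTR mice, and of 0.786% and 0.545% in mCRS mice. The regions were separated by their own markers: 8 striatal projection neuron genes summed to between 193 and 1164 CPM (counts scaled by the normalised size of the library) in the PFC and to between 2579 and 7192 CPM in the NAc with a single library left aside. That library, labelled NAc CTR 7, went against its label with a striatal sum of 486 CPM, including 1 count of the dopamine receptor gene *Drd1*. Its sum over 6 cortical excitatory markers was 45.0 CPM, low as in other NAc CTR libraries (47.2 CPM in NAc CTR 15, and at most 243 CPM). Values of the members, their ratios and the pathway counts without it are given below beside those with it, and the marker gene tests were not repeated without it. In 4 libraries (PFC mCRS 3, PFC mCRS 12, NAc CTR 2 and NAc mCRS 6) fewer than 75% of the listed genes had a count.

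The sequences before the start sites of *Syn1*, *Stx1a* and *Vamp1* are shown because these members differed between the regions in opposite directions. They are RefSeq windows of GRCm38.p6, read on the strand of the gene, cut where an annotated transcript begins, with the letters that match a searched motif in capitals. *Syn1* is at chrX:20921005-20921168 (minus strand, 164 bases), *Stx1a* at chr5:135023232-135023481 (plus strand, 250 bases) and *Vamp1* at chr6:125215331-125215550 (plus strand, 220 bases).
Syn1: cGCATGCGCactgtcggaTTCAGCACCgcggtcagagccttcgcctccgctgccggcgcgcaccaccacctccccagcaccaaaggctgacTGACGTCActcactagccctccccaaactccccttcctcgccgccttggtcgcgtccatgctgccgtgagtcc
Stx1a: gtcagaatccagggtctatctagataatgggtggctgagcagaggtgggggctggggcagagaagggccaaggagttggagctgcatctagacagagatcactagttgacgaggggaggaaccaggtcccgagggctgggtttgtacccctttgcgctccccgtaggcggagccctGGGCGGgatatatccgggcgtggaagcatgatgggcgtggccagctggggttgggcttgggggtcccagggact
Vamp1: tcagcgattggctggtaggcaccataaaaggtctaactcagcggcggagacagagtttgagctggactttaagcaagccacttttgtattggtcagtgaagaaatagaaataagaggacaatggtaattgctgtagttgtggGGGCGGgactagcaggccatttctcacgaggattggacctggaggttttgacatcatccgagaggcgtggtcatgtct
The motifs searched on both strands were the GC box (GGGCGG), the cAMP response element (TGACGTCA), the left part of the RE1 silencer element (TTCAGCACC), the NRF1 core (GCATGCGC) and the TATA motif (TATAAA). The *Syn1* window held the NRF1 core, the RE1 part and the cAMP response element, none overlapping another, at 249 to 242, 232 to 224 and 159 to 152 bases before the RefSeq start. *Stx1a* held a GC box at 74 to 69 bases and *Vamp1* held a GC box at 108 to 103 bases before the start. Among the 250 bases before each of 32851 RefSeq starts, 32.7% of windows held a GC box, 12.4% a TATA motif, 2.26% the NRF1 core, 1.55% the cAMP response element and 0.301% the RE1 part. RefSeq windows were at hand for 6 of the 8 members, 8 windows in all, of which 5 held a GC box. Windows for *Snap25* and *Vamp2* were not used here. A match is a description of the letters and not evidence of binding.

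Which of these genes differ between the PFC and the NAc was the first comparison, made separately in CTR and in mCRS mice. In both, *Stx1a*, *Snap25*, *Syt1* and *Syn1* were higher in the PFC and *Vamp1* was higher in the NAc, whereas *Vamp2*, *Syn2* and *Sv2a* did not pass the test. Significance was a Benjamini-Hochberg false discovery rate (FDR) below 0.05 over 11025 genes by edgeR's quasi-likelihood test, and log2 fold changes are PFC over NAc with their SE. The 5 members called in CTR mice stand against 5.44% of all genes tested, the 4 higher in the PFC against 3.56% and the 1 higher in the NAc against 1.89%. The 5 members called in mCRS mice stand against 6.49% of all genes, with 3.86% higher in the PFC and 2.62% higher in the NAc. The median log2 fold change of the 8 members was 0.54 in CTR and 0.50 in mCRS mice, beside -0.04 and -0.06 over all genes tested. The CTR and mCRS comparisons share no library, but both regions were taken from the same set of mice and which PFC and NAc libraries come from the same mouse is not stated, so libraries were tested as independent. In bulk tissue, fewer cells of a type and less RNA per cell cannot be told apart.

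**Figure D1:**
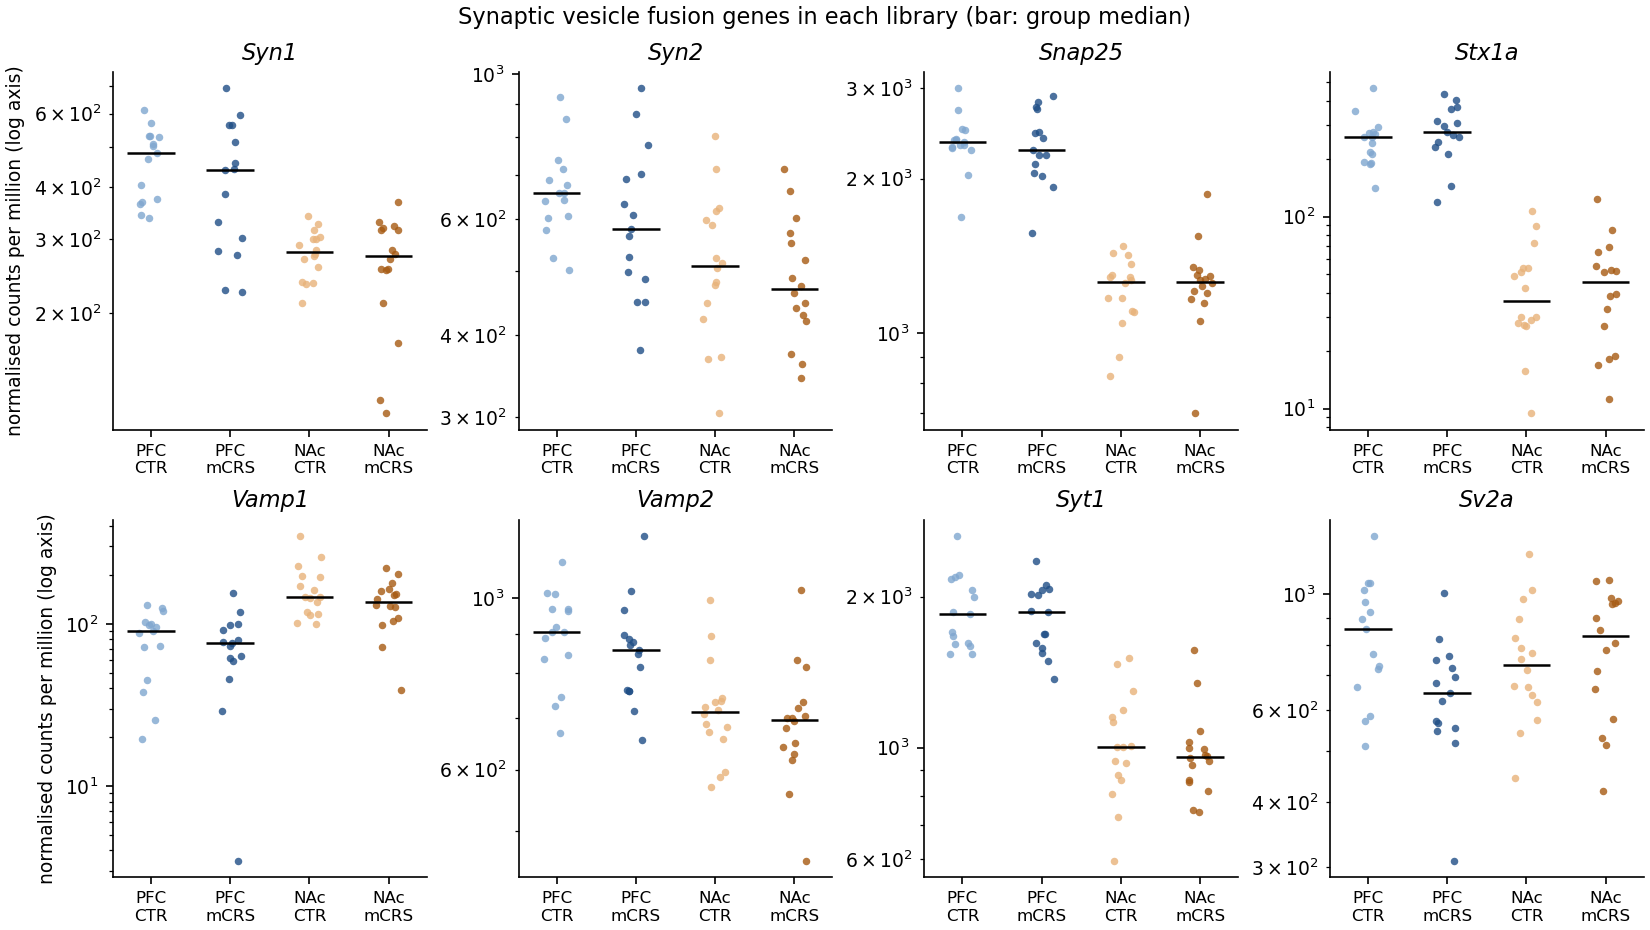
Normalised CPM (log axis) of the 8 members in each of the 62 libraries, by region and treatment, with a bar at the group median. *Stx1a* had a median of 260 CPM in PFC CTR and 36.2 CPM in NAc CTR, and *Vamp1* had medians of 90.1 and 146 CPM in the other direction. The CTR and mCRS points of a region overlap for each gene but do not span the same range. For *Sv2a* in the PFC they run from 513 to 1293 CPM in CTR and from 309 to 1002 CPM in mCRS mice.

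The t-SNAREs are the partners that sit on the plasma membrane. *Stx1a* (ENSMUSG00000007207, chr5:135023482-135051100, plus strand) encodes syntaxin-1A. Its levels ran from 141 to 464 CPM with a median of 260 in PFC CTR, from 118 to 434 with a median of 276 in PFC mCRS, from 9.46 to 107 with a median of 36.2 in NAc CTR and from 11.2 to 123 with a median of 45.5 in NAc mCRS. The PFC CTR and NAc CTR libraries did not overlap, and the mCRS groups overlapped only between the lowest PFC and the highest NAc library. *Stx1a* was 5.70-fold higher in the PFC of CTR mice (log2 fold change 2.51 ± 0.27, n = 15 and 16 libraries, FDR = 2.04e-12) and 5.98-fold higher in that of mCRS mice (2.58 ± 0.27, FDR = 1.09e-12), the widest regional difference of any member. *Snap25* (ENSMUSG00000027273, chr2:136713453-136782428, plus strand) encodes SNAP-25, the other partner on the plasma membrane and a target of botulinum toxin A. It ran from 1681 to 2995 CPM with a median of 2355 in PFC CTR and from 826 to 1476 with a median of 1260 in NAc CTR, again without overlap. In mCRS mice it ran from 1566 to 2897 CPM with a median of 2277 in the PFC and from 699 to 1867 with a median of 1261 in the NAc. Every PFC mCRS library lay above the NAc mCRS median, though the ranges met. The difference was 1.95-fold in CTR (0.96 ± 0.09, FDR = 7.15e-14) and 1.85-fold in mCRS mice (0.88 ± 0.09, FDR = 2.75e-12).

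The calcium sensor moved with the t-SNAREs. *Syt1* (ENSMUSG00000035864, chr10:108497650-109010982, minus strand) encodes synaptotagmin-1, which binds calcium through its C2 domains and triggers fast release. Its levels ran from 1540 to 2644 CPM with a median of 1847 in PFC CTR and from 595 to 1509 with a median of 1002 in NAc CTR, so these groups did not overlap. In PFC mCRS *Syt1* ran from 1372 to 2359 CPM with a median of 1863, and in NAc mCRS from 743 to 1564 with a median of 958. *Syt1* was 1.83-fold higher in the PFC of CTR mice (0.87 ± 0.11, FDR = 5.69e-10) and 1.85-fold higher in that of mCRS mice (0.89 ± 0.11, FDR = 3.07e-10). Members whose CTR groups did not overlap thus numbered 3 of 8, where 0.372% of all genes had CTR groups that did not overlap. Between the mCRS groups 0 of the 8 members were free of overlap, as were 0.263% of all genes.

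The synapsins coat vesicles and tether them to the cytoskeleton and to each other. *Syn1* (ENSMUSG00000037217, chrX:20860511-20921004, minus strand) ran from 338 to 612 CPM with a median of 484 in PFC CTR and from 211 to 342 with a median of 280 in NAc CTR. In PFC mCRS it ran from 225 to 689 CPM with a median of 440 and in NAc mCRS from 115 to 369 with a median of 273. All 15 PFC CTR libraries lay above the NAc CTR median, and 13 of 15 PFC mCRS libraries above the NAc mCRS median. *Syn1* was 1.65-fold higher in the PFC of CTR mice (0.73 ± 0.15, FDR = 0.000508) and 1.60-fold higher in that of mCRS mice (0.68 ± 0.15, FDR = 0.00111). *Syn2* (ENSMUSG00000009394, chr6:115134902-115282006, plus strand) ran from 502 to 921 CPM with a median of 657 in PFC CTR and from 304 to 804 with a median of 510 in NAc CTR, with 14 of 15 PFC CTR libraries above the NAc CTR median. In PFC mCRS *Syn2* ran from 380 to 950 CPM with a median of 580 and in NAc mCRS from 344 to 715 with a median of 470. Its log2 fold changes of 0.35 ± 0.13 in CTR (FDR = 0.121) and 0.31 ± 0.13 in mCRS mice (FDR = 0.173) did not pass the test. The highest NAc CTR value of *Syn2* was that of the library labelled NAc CTR 7, and without it the log2 fold change in CTR mice was 0.41 ± 0.13 (FDR = 0.0455).

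The v-SNAREs sit on the vesicle, and of the pair measured here *Vamp1* was called between the regions and *Vamp2* was not. *Vamp1* (ENSMUSG00000030337, chr6:125215551-125245964, plus strand) encodes synaptobrevin-1, the copy best known from the brainstem, spinal cord and fast-spiking neurons. It ran from 19.5 to 131 CPM with a median of 90.1 in PFC CTR and from 100 to 349 with a median of 146 in NAc CTR. In PFC mCRS it ran from 3.46 to 155 CPM with a median of 76.1 and in NAc mCRS from 39.0 to 222 with a median of 136. Every PFC CTR library lay below the NAc CTR median, and 14 of 15 PFC mCRS libraries lay below the NAc mCRS median. *Vamp1* was 2.06-fold higher in the NAc of CTR mice (-1.04 ± 0.28, FDR = 0.00875) and 1.81-fold higher in that of mCRS mice (-0.85 ± 0.28, FDR = 0.0423). The highest NAc CTR value, 349 CPM, was again that of NAc CTR 7, and without this library the CTR difference was -0.93 ± 0.28 (FDR = 0.0289). In mCRS mice the call was lost when any of 14 libraries was left out singly (FDR up to 0.0805) and when a replicate block was fitted (-0.79, FDR = 0.0918). *Vamp2* (ENSMUSG00000020894, chr11:69088490-69092384, plus strand) encodes synaptobrevin-2, the main v-SNARE of the forebrain. It ran from 669 to 1116 CPM with a median of 904 in PFC CTR, from 655 to 1206 with a median of 858 in PFC mCRS, from 570 to 994 with a median of 713 in NAc CTR and from 457 to 1026 with a median of 696 in NAc mCRS. These ranges overlapped, although 14 of 15 PFC libraries lay above the NAc median in both CTR and mCRS mice. The log2 fold changes of *Vamp2*, 0.32 ± 0.11 in CTR (FDR = 0.0557) and 0.30 ± 0.11 in mCRS mice (FDR = 0.0704), lay just outside the threshold, and in CTR mice 28 of the 62 fits that left out a library put it inside. Without NAc CTR 7 the CTR value of *Vamp2* was 0.33 ± 0.11 (FDR = 0.0543).

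*Sv2a* (ENSMUSG00000038486, chr3:96181151-96195521, plus strand) encodes the most widespread of the SV2 glycoproteins and the binding site of the antiseizure drug levetiracetam. It ran from 513 to 1293 CPM with a median of 857 in PFC CTR, from 309 to 1002 with a median of 646 in PFC mCRS, from 446 to 1194 with a median of 733 in NAc CTR and from 421 to 1063 with a median of 831 in NAc mCRS. The order of the medians differed between treatments, the PFC being higher in CTR mice and the NAc higher in mCRS mice. Neither regional difference of *Sv2a* passed the test, with log2 fold changes of 0.15 ± 0.14 in CTR (FDR = 0.791) and -0.29 ± 0.14 in mCRS mice (FDR = 0.267). Without NAc CTR 7 the calls of the other members in CTR mice held, with log2 fold changes of 2.48 for *Stx1a*, 0.94 for *Snap25*, 0.85 for *Syt1* and 0.73 for *Syn1*, and *Sv2a* was at 0.19.

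**Figure D2:**
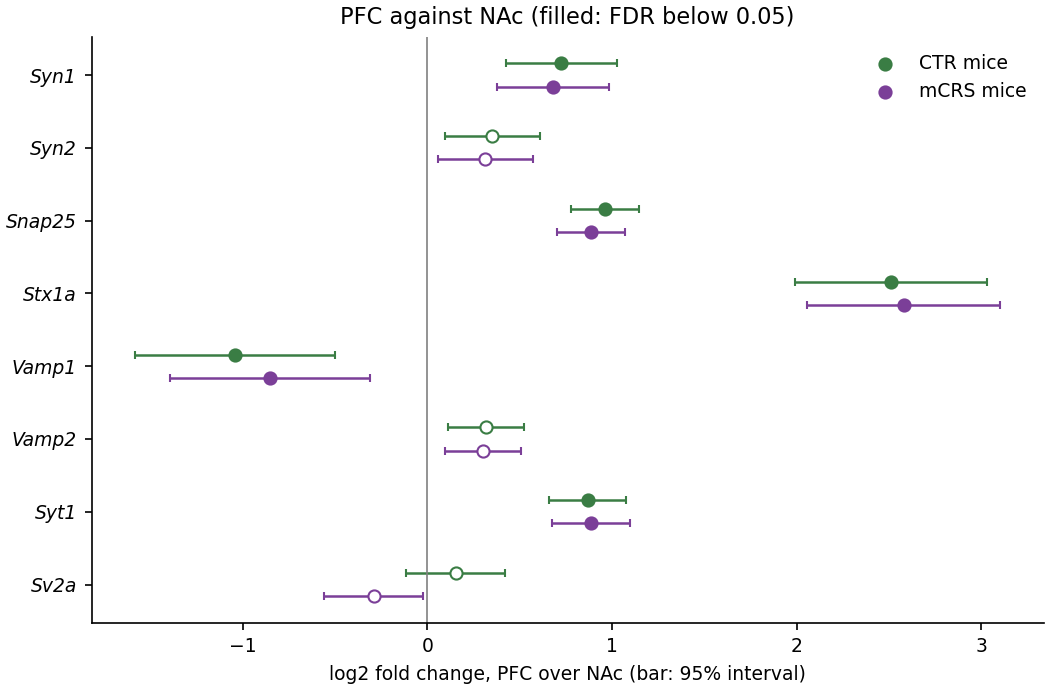
Log2 fold change of each member, PFC over NAc, in CTR mice (green) and mCRS mice (purple), with 95% intervals. Filled points had an FDR below 0.05. *Stx1a* lies farthest to the right at 2.51 and 2.58, *Vamp1* is the only filled point on the left, and the CTR and mCRS intervals of each gene overlap.

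Other cell types moved with the regions. Of the 8 striatal projection neuron markers, 8 were higher in the NAc in both treatments, and of the 6 oligodendrocyte markers, 5 were higher in the NAc, with sums from 1678 to 5892 CPM in PFC CTR and from 5249 to 7790 CPM in NAc CTR. Of the 6 cortical excitatory neuron markers, 4 were higher in the PFC of CTR and 5 in that of mCRS mice, with sums from 705 to 1468 CPM in PFC CTR and from 45.0 to 243 CPM in NAc CTR. The GABAergic list had 3 of 6 genes higher in the NAc and 1 higher in the PFC, with sums from 825 to 1701 CPM in PFC CTR and from 1554 to 2836 CPM in NAc CTR. The astrocyte, microglial and endothelial lists had 0 genes called between regions, and no list had a marker at 0 in every library of a group. The part of these cell types in the regional differences of the members was not tested.

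The other genes of the vesicle cycle were taken from a list of 90 genes, of which 88 were counted and tested. In CTR mice 17 were higher in the PFC and 3 higher in the NAc, where 3.56% and 1.89% of the whole tested set were. For mCRS mice the counts were 12 and 6, where 3.86% and 2.62% of that set were. These shares also serve as the background for the counts by role below. The list had a median log2 fold change of 0.28 for CTR mice, against -0.04 for the whole tested set. For mCRS mice the list stood at 0.18, against -0.06. Without NAc CTR 7 the CTR counts were again 17 and 3 with a median of 0.31, and 18 genes were called in both fits. The active zone gene *Rims1* (0.81, FDR = 0.0504) and *Syt7* were then no longer called, *Doc2a* and *Syt13* were called instead, and the genes called in either fit moved by at most 0.28 on the log2 scale. Among 22 relatives of the members, 5 were higher in the PFC and 1 in the NAc of CTR mice, and 3 and 2 in mCRS mice. The SV2 family was split: *Sv2b*, found mainly in excitatory neurons, was 7.58-fold higher in the PFC of CTR mice (2.92 ± 0.31, FDR = 1.24e-12) and 5.07-fold higher in that of mCRS mice (2.34 ± 0.30, FDR = 2.37e-09). *Sv2c*, the basal ganglia copy, was lower in the PFC (-2.55 ± 0.54, FDR = 0.000459 in CTR, and -2.52 ± 0.54, FDR = 0.000518 in mCRS mice). The synaptotagmin *Syt4* was higher in the PFC in both treatments (0.69 ± 0.19 and 1.06 ± 0.19), *Syt17* was so in CTR mice (2.0 ± 0.59) and *Syt16* in mCRS mice (1.80 ± 0.39).

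Among 23 genes of SNARE assembly and disassembly, 4 were higher and 2 lower in the PFC of CTR mice, and 3 and 4 in mCRS mice. *Napb*, encoding β-SNAP, which loads the ATPase NSF onto spent complexes, was higher in the PFC (0.65 ± 0.13 in CTR and 0.76 ± 0.13 in mCRS mice). The priming factor gene *Unc13c* was lower in the PFC, with medians of 26.6 CPM in PFC CTR and 260 CPM in NAc CTR (-2.94 ± 0.43, FDR = 2.05e-07). The Rab3 effector gene *Rph3a* was higher in the PFC of CTR mice (0.94 ± 0.19), and *Doc2b*, which encodes another calcium sensor, was lower in the PFC of mCRS mice (-3.98 ± 0.75) at a PFC median of 0.581 CPM.

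Among 11 active zone genes, 2 were higher in the PFC of CTR mice, the scaffold genes *Bsn* (1.06 ± 0.29) and *Rims1* (0.88 ± 0.28), and 1 in mCRS mice, *Rims1* (0.85 ± 0.28). Of 9 vesicle membrane genes, *Syp*, which encodes synaptophysin, was higher in the PFC of CTR mice (0.58 ± 0.13, FDR = 0.00109), and 0 passed in mCRS mice, where *Syp* had a log2 fold change of 0.37 and an FDR of 0.0696. Of 23 endocytosis and recycling genes, the same 5 were called in both treatments and 0 were lower in the PFC: *Sh3gl2* (endophilin A1), *Dnm1* (dynamin-1), *Cltc* (clathrin heavy chain), *Dnajc6* (auxilin) and *Snap91* (AP180). Their log2 fold changes ran from 0.76 for *Cltc* to 1.26 for *Sh3gl2* in CTR mice and from 0.71 for *Dnm1* to 1.36 for *Dnajc6* in mCRS mice.

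**Figure D3:**
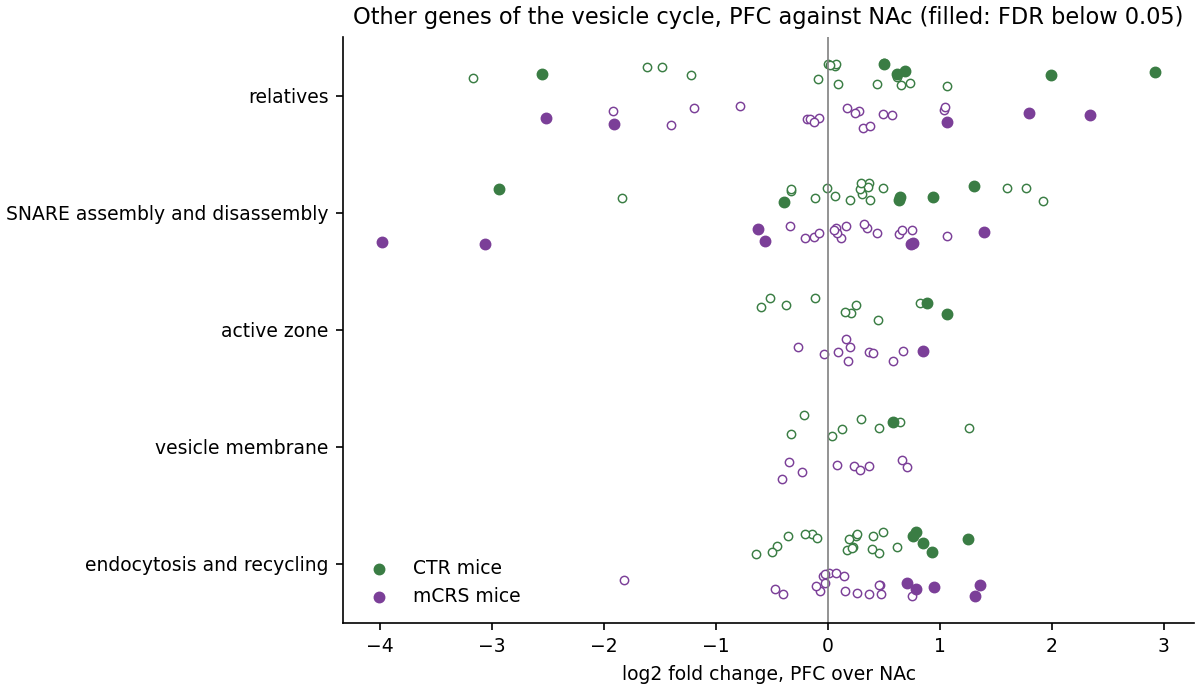
Log2 fold change, PFC over NAc, of 88 other vesicle cycle genes by role, in CTR mice (green) and mCRS mice (purple). Filled points had an FDR below 0.05, and the 5 filled endocytosis genes lie between 0.71 and 1.36 on the PFC side in both treatments.

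Ratios between a member and its nearest relative were then compared, since a ratio within a library does not depend on the scaling of that library. The log2 ratio of normalised CPM was tested by two-sided permutation with 100000 resamples, adjusted over 12 comparisons, of which 9 (3 ratios) are given here. *Vamp1* over *Vamp2* and *Sv2a* over *Sv2b* differed between the regions and reached the smallest p these resamples can give, 2e-05 (adjusted p = 8e-05). *Vamp1* over *Vamp2* was -3.62 ± 0.91 (SD, n = 15) in PFC CTR and -2.17 ± 0.54 (SD, n = 16) in NAc CTR, a difference of -1.45 ± 0.27 (SE), and -1.37 without NAc CTR 7. *Sv2a* over *Sv2b* was 0.96 ± 0.62 in PFC CTR and 4.20 ± 1.5 in NAc CTR, a difference of -3.24 ± 0.41, and -3.16 without NAc CTR 7. *Sv2b* had a median of 47.3 CPM in NAc CTR and fell to 5 counts (2.80 CPM) in a library there, and to 2 counts in NAc mCRS. At such counts the size of the ratio depends on the prior count. *Syn1* over *Syn2* was -0.54 ± 0.42 in PFC CTR and -0.87 ± 0.46 in NAc CTR, which did not pass after adjustment (difference 0.33 ± 0.16, permutation p = 0.046, adjusted p = 0.111) and was 0.29 without NAc CTR 7 (adjusted p = 0.192).

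**Figure D4:**
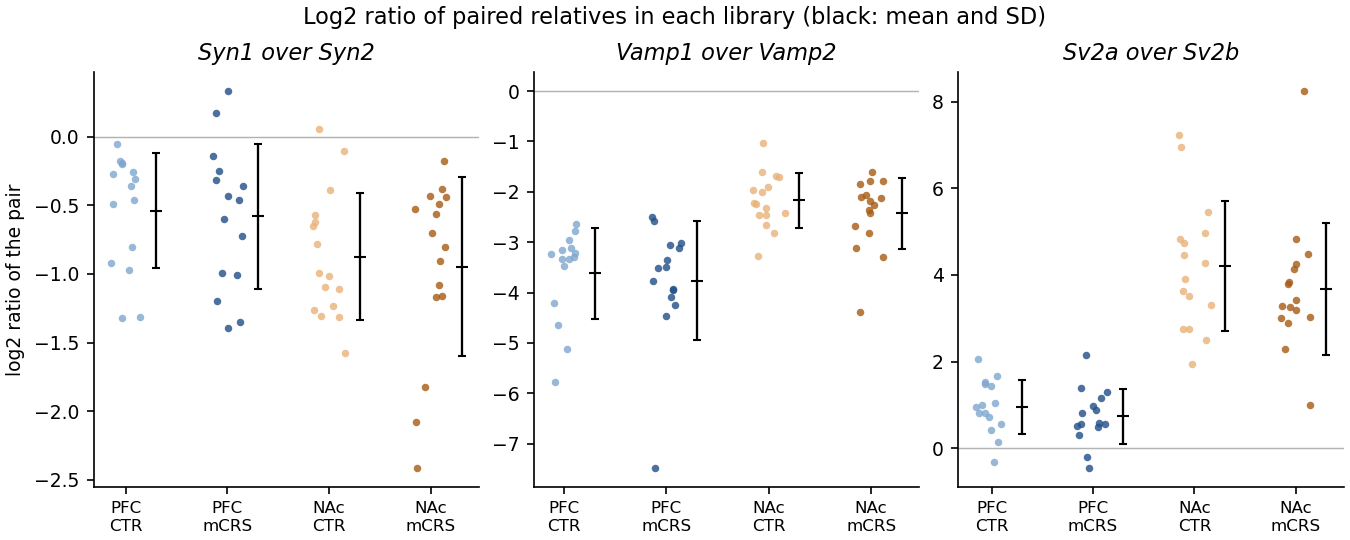
Log2 ratio of each member to a relative in each library, by region and treatment, with the mean and SD in black. *Sv2a* over *Sv2b* lies between -0.32 and 2.07 in PFC CTR and between 1.95 and 7.24 in NAc CTR, and *Vamp1* over *Vamp2* lies lower in the PFC than in the NAc, with overlap.

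The effect of chronic stress was the study's question. In the PFC 0 of the 8 members differed between mCRS and CTR mice at an FDR below 0.05 by edgeR, where 0% of 8916 genes did, and 1 member, *Sv2a*, had an unadjusted p below 0.05, where 3.5% of genes did. DESeq2 gave an adjusted p to 6 of the 8 members, leaving out *Stx1a* and *Vamp1*, and to 619 of the 8916 genes. It called 0 of those 6 members and 5 genes in all, and had 1 member with an unadjusted p below 0.05, *Sv2a* (adjusted p = 0.128), where 4.92% of genes did. In the NAc 0 members passed, where 0.00986% of 10141 genes did, and 0 had an unadjusted p below 0.05 by either tool, where 2.04% of genes did by edgeR and 3.33% by DESeq2. Over the members the median log2 fold change, mCRS over CTR, was -0.08 in the PFC and -0.06 in the NAc, beside -0.01 over all genes in each region.

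*Sv2a* was the member with the lowest p under stress. In the PFC 14 of 15 mCRS libraries lay below the CTR median of 857 CPM, but the ranges of 309 to 1002 and 513 to 1293 CPM overlapped. Its log2 fold change was -0.36 ± 0.14 (unadjusted p = 0.0134), and it did not pass the adjustment over all genes (FDR = 0.9997). Leaving out each library in turn gave values from -0.42 to -0.31 (unadjusted p up to 0.0347). Libraries numbered 1 to 8 gave -0.40 (unadjusted p = 0.0349) and those numbered 9 and above gave -0.33 (unadjusted p = 0.141). In the NAc 6 of 16 mCRS libraries lay below the CTR median and the log2 fold change was 0.07 ± 0.13 (p = 0.576), or 0.11 ± 0.13 without NAc CTR 7. The stress effect in the PFC minus that in the NAc was -0.44 ± 0.19 for *Sv2a* (unadjusted p = 0.0246, not passed after adjustment), in a test where 3.09% of genes had an unadjusted p below 0.05 and 0.00907% an FDR below 0.05. Without NAc CTR 7 this difference was -0.49 ± 0.20 (unadjusted p = 0.0144). It was -0.43 in libraries numbered 1 to 8 (unadjusted p = 0.117) and -0.47 in those numbered 9 and above (unadjusted p = 0.0817). In a fit that held the detected share of genes constant, the PFC value was -0.31 and its unadjusted p was 0.0525. That share was 82.3 ± 6.22% in PFC mCRS and 87.1 ± 4.42% in PFC CTR (SD), the mtDNA share of counts was 16 ± 3.64% and 12.9 ± 3.0%, and the summed astrocyte markers had medians of 568 and 800 CPM. The part of these in the *Sv2a* value was not tested.

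The 95% intervals bound the size of a stress effect for the other members. In the PFC they ran from -0.20 to 0.17 for *Snap25*, from -0.24 to 0.15 for *Syt1*, from -0.28 to 0.16 for *Vamp2*, from -0.39 to 0.15 for *Syn2* and from -0.45 to 0.18 for *Syn1* on the log2 scale. *Stx1a* at 0.15 ± 0.19 and *Vamp1* at -0.10 ± 0.36 were measured less closely. In a single library, PFC mCRS 8, *Vamp1* had 8 counts among 2559839, or 3.46 CPM beside the group's median of 76.1. In the NAc the intervals ran from -0.14 to 0.25 for *Snap25*, from -0.29 to 0.16 for *Syt1*, from -0.26 to 0.16 for *Vamp2*, from -0.35 to 0.17 for *Syn2* and from -0.39 to 0.20 for *Syn1*. *Stx1a* at 0.08 ± 0.40 and *Vamp1* at -0.30 ± 0.21 again had the widest intervals, and *Vamp1* was at -0.18 and *Stx1a* at 0.05 without NAc CTR 7. Without that library the intervals ran from -0.16 to 0.22 for *Snap25*, from -0.31 to 0.14 for *Syt1*, from -0.25 to 0.17 for *Vamp2*, from -0.28 to 0.23 for *Syn2* and from -0.39 to 0.21 for *Syn1*. An interval that spans 0 does not show that the groups were alike.

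**Figure D5:**
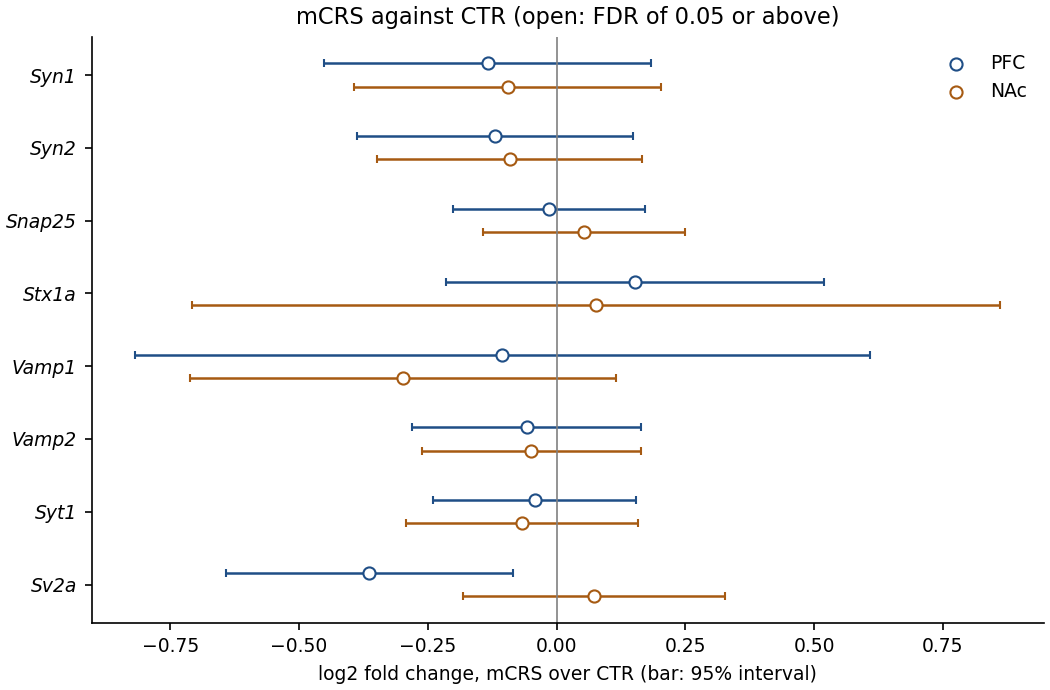
Log2 fold change of each member, mCRS over CTR, in the PFC (blue) and the NAc (orange), with 95% intervals. Every point is open because its FDR was 0.05 or above, and *Sv2a* in the PFC, at -0.36, is the only interval that does not cross 0.

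None of the 3 ratios passed under stress in either region, with adjusted p values from 0.513 to 0.812. *Sv2a* over *Sv2b* was 0.73 ± 0.64 (SD, n = 15) in PFC mCRS beside 0.96 ± 0.62 in PFC CTR (difference -0.22 ± 0.23 SE, permutation p = 0.339), and in the NAc the difference was -0.52 ± 0.53 (permutation p = 0.342). *Vamp1* over *Vamp2* differed by -0.15 ± 0.38 in the PFC and -0.25 ± 0.22 in the NAc, and *Syn1* over *Syn2* by -0.04 ± 0.17 and -0.07 ± 0.20. Without NAc CTR 7 the NAc differences were -0.43 for *Sv2a* over *Sv2b*, -0.18 for *Vamp1* over *Vamp2* and -0.12 for *Syn1* over *Syn2*.

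Of the other vesicle cycle genes, 0 of 82 tested passed under stress in the PFC and 0 of 85 in the NAc by edgeR. DESeq2 also called 0, but in the PFC it gave an adjusted p to only 24 of the 82. In the PFC 5 had an unadjusted p below 0.05 by edgeR, where 3.5% of all genes did, and 6 by DESeq2, where 4.92% did. In the NAc 4 did by edgeR, where 2.04% of all genes did, and 4 by DESeq2, where 3.33% did. The lowest in the PFC were *Nsf*, the ATPase that takes SNARE complexes apart, at -0.36 ± 0.14 (p = 0.0154), and *Cltc* at 0.40 ± 0.17 (p = 0.0188). Among the 4 by edgeR in the NAc were *Cltc* at 0.37 ± 0.17 (p = 0.0373) and the synaptotagmin *Syt9* at 2.29 ± 0.95 (p = 0.0198). *Syt9* had a CTR median of 0.934 CPM. Without NAc CTR 7 the values of *Cltc* and *Syt9* were 0.38 and 2.53. The vesicle membrane gene *Scamp1* was at 0.40 in the NAc, or at 0.46 without NAc CTR 7 (unadjusted p = 0.0129 by edgeR). None of these passed the adjustment over all genes.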

How the data were processed

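BRB-seq of total RNA was used for all libraries. Reads had been aligned by the authors to GRCm38 (mm10) using STAR. They counted uniquely mapped reads per gene with htseq (HTSeq 0.9.1 in the submitters' processing notes) and removed PFC samples of poor sequencing quality. The deposited counts are whole numbers with no normalization, and 0 columns were left unused. Whether counting used strand is not given in the sources used here. Reads of the opposite-strand genes *Araf*, next to *Syn1*, and *Timp4*, inside *Syn2*, may therefore not be told apart from theirs. Reads carry no molecular identifiers, so depth covers counting error only.

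Counts were normalised by TMM, filtered with filterByExpr by group and tested with edgeR 4.0.16 (R 4.3.3) by the quasi-likelihood test with Benjamini-Hochberg adjustment. Stress was tested within each region, and region and the interaction in a fit of all 62 libraries. SEs are the log2 fold change over the square root of F, and 95% intervals are 1.96 SEs wide on each side. Ratios used log2 CPM with a prior count of 2 and SciPy 1.17.1. The fit was also run on counts simulated from the model it assumes, with changes larger than the members' stress values. That run does not bear on effects as small as those values. DESeq2 1.42.0, other scalings, filters, a covariate, a replicate block, each library left out and libraries split by number were tried as alternatives.

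The members and lists were chosen with earlier results of these data known. Members are named in every comparison. Named pathway genes are, per role, the 4 of smallest p among those called between regions and the 3 of smallest p under stress, of which the text gives a part. Some of these genes, and 1 of the paralog ratios tested, are not reported here. Gene positions are those of GENCODE vM21. Replicates are separate libraries by label, and no 2 libraries of a group were copies. Deviations from the group mean of same-numbered libraries of different groups correlated at -0.0304 to 0.0533. No pair known to come from the same mouse was at hand for comparison, so these values cannot decide whether a shared number means a shared mouse.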

Additional observations from a re-analysis of the deposited data

How the results depend on the processing

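Of the members, *Stx1a* in the NAc and *Vamp1* had the lowest counts, which fell to 20 and 8 in a library. No member passed under stress in either region under any alternative tried, though DESeq2 gave *Stx1a* and *Vamp1* no adjusted p in the PFC. When each library was left out in turn, 5 to 6 of the 8 members passed between regions in CTR mice and 4 to 6 in mCRS mice. In the main fit 5.44% of all genes passed in CTR and 6.49% in mCRS mice. Of the alternatives, the number of all genes passing between regions is given for DESeq2 only. The members called with all libraries passed in each of the 62 fits but for *Vamp1* in mCRS mice, lost in 14, and the gains were of *Vamp2* and *Syn2*. The pathway calls ran from 16 to 22 and from 16 to 20. With libraries numbered 1 to 8 alone, 3 members and 7 pathway genes passed in CTR mice and 3 and 9 in mCRS mice, and with those numbered 9 and above 12 pathway genes passed in CTR mice. *Vamp1* kept its direction in both subsets but did not pass in either (-0.97 and -1.12 in CTR, -0.74 and -0.99 in mCRS mice), nor in mCRS mice with the detected share of genes held constant (-0.84, FDR = 0.0914) or without the 4 libraries with under 75% of genes detected (-0.86, FDR = 0.0596), a choice made after the data were seen. *Syn1* did not pass in libraries 1 to 8 (0.77 and 0.40). *Vamp2* passed with a stricter filter (0.34 in CTR, 0.33 in mCRS mice) and in CTR mice with no filter (0.33). In mCRS mice it also passed with DESeq2 (0.25). DESeq2 called 6 members in mCRS mice and 947 of 11025 genes, where edgeR called 5 members and 715 genes. Without the 4 libraries and NAc CTR 7, *Syn2* passed in CTR mice (0.45, FDR = 0.0242).

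Members that had no call under stress changed sign under some settings, and the cause was not tested. In libraries numbered 9 and above, the PFC stress value was 0.15 for *Syn1*, 0.020 for *Syn2* and 0.067 for *Snap25*, the NAc value of *Stx1a* was -0.18, and the PFC minus NAc value was 0.28 for *Syn1*, 0.14 for *Syn2*, 0.045 for *Snap25* and 0.017 for *Vamp2*. In libraries 1 to 8 the PFC minus NAc value of *Stx1a* was -0.37. Over the settings, the PFC stress value of *Syn1* ran from -0.43 to 0.15 and its PFC minus NAc value from -0.38 to 0.28. *Snap25* in the PFC was 0.0019 with RLE size factors, 0.0018 with DESeq2 and 0.020 with the detected share held constant, and the PFC minus NAc value of *Vamp2* was 7.78e-05 with RLE. Leaving out each library gave -0.051 to 0.018 for *Snap25* in the PFC, -0.077 to 0.22 for *Stx1a* in the NAc, and for the PFC minus NAc value -0.073 to 0.23 for *Stx1a*, -0.039 to 0.074 for *Syt1* and -0.075 to 0.028 for *Vamp2*.

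When each library was left out, the difference in the log2 ratio *Syn1* over *Syn2* between regions ran from 0.29 to 0.40, and it passed without PFC CTR 5, PFC CTR 8, NAc CTR 3 or NAc CTR 15 (adjusted p down to 0.0365). Under stress, *Vamp1* over *Vamp2* ran from -0.30 to 0.12 in the PFC and *Syn1* over *Syn2* from -0.11 to 0.017 in the PFC and from -0.13 to 0.024 in the NAc, at 0.0090 without the 4 libraries. A prior count of 0.5 or 5 changed no call.

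In the fit with a replicate block, 5 members and 20 pathway genes passed in CTR mice and 4 and 17 in mCRS mice, the member lost being *Vamp1* (-0.79), and 0 passed under stress. Same-numbered libraries did not deviate together, which cannot decide whether they share a mouse. The main fits did not take the numbers to pair libraries.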

Other observations

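Within groups, the members showed little correlation with each other in the median pair. Over 62 libraries, the Pearson correlation of the members' deviations from their group means (log2 CPM) ran from -0.16 to 0.41 over 28 pairs, with a median of -0.01, and 14 pairs were above 0. The highest was *Syn1* with *Snap25* at 0.41, followed by *Snap25* with *Vamp2* at 0.26. Values of the same library share its depth and scaling, and counting error can lower a correlation. Neither part was tested, so these are descriptions. Correlations of the members with the share of genes detected ran from -0.23 for *Syn2* to 0.10 for *Syn1*, and with the mtDNA share of counts from -0.27 for *Stx1a* to 0.04 for *Syt1*.

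Some of the genes most like each member by this measure are given here. They are the highest of the correlations with all other genes tested, picked from these same data. Whether values this high exceed those that arise by chance was not tested. For *Sv2a* they were *Slc22a17* (0.60), *Sez6l2* (0.54) and the tubulin gene *Tubb5* (0.51). For *Snap25* they were *Lrrc7* (0.58), which encodes a postsynaptic density protein, *Tenm1* (0.52) and *Htatsf1* (0.51). For *Vamp2* the nearest was *Hist2h2be* (0.52), for *Syn1* *Zfp326* (0.50), for *Stx1a* *Zfp938* (0.48), for *Vamp1* *Magi1* (0.46) and for *Syt1* *Mif* (0.46), which was also followed by the vesicular zinc transporter gene *Slc30a3* (0.43).

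In NAc CTR 7, where striatal markers were low, the members did not share a direction. Among the 16 NAc CTR libraries it was the highest for *Vamp1* and *Syn2* (804 CPM, where the other 15 ran from 304 to 717) and the lowest for *Snap25* (826 CPM, where the others ran from 900.4 to 1476).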
